A study of Mus musculus with 10 samples.

Results

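The 10 genes described here are 7 Toll-like receptors (Tlr1, Tlr2, Tlr4, Tlr6, Tlr7, Tlr9 and Tlr13), the LPS co-receptor Cd14, the adaptor Myd88 and the inhibitory kinase homologue Irak3, chosen by name from the 28185 genes of the deposited table. They were measured by RNA-seq in Ly6G+ cells, a magnetic bead enrichment for neutrophils, taken 3 days after left coronary artery (LCA) ligation in male C57Bl/6J mice aged 12 to 16 weeks. The heart cells came from the left ventricle below the ligature, without MSC treatment (MI, n = 3) or after treatment with mesenchymal stromal cells (MI + MSC, n = 3). The blood cells came from mice with the same ligation, untreated (Blood, n = 2) or MSC-treated (Blood + MSC, n = 2). Treated mice received 3 subcutaneous injections of 1000000 syngeneic bone marrow MSC each. Every library came from a ligated mouse, so none of the comparisons has an unligated control, and the labels do not tie heart and blood libraries to the same mouse. The batch named in the labels is the group itself, so batch and group cannot be told apart. The study's methods name the single animal as experimental unit, while the labels do not tie each library to a mouse, and the p-values measure the spread between these libraries.

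Toll-like receptors recognize microbial molecules and products of damaged cells. Tlr2 pairs with Tlr1 or Tlr6 at the cell surface to bind lipopeptides, and Tlr4 binds LPS that Cd14 hands over. Tlr7, Tlr9 and Tlr13 sit in endosomes and sense single-stranded RNA, unmethylated CpG DNA and bacterial ribosomal RNA, respectively. All 7 receptors signal through Myd88, which recruits Irak4 and Irak1 to activate NF-kappa B, and Irak3 (IRAK-M) dampens this step. Neutrophils carry most of these receptors and respond to their ligands by cytokine release, degranulation and longer survival.

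Values are normalized counts, the reads of a gene divided by the size factor of its library. Libraries held 148594 to 8602711 reads on genes, and in MI 13 and Blood 21, the shallowest, a value of 8.40 and 7.07 normalized counts is 1 read. The cells were checked against marker lists. Ly6g itself, the gate of the enrichment, ranged from 4.75 to 26.9 normalized counts over 6 heart libraries and from 41.2 to 645 over 4 from blood. The summed level of 14 neutrophil markers was 2664 to 8380 in the MI libraries, 2872 to 14033 in those of MI + MSC, 46709 to 55295 in those of Blood and 17263 to 24519 in those of Blood + MSC. The 12 monocyte and macrophage markers summed to 3337 to 8762 in the MI libraries, 6015 to 12397 in those of MI + MSC, 6730 to 8055 in those of Blood and 5795 to 7401 in those of Blood + MSC, with at most 1 of the 12 at 0 in any library. Cardiomyocyte markers (8 genes) summed to 3138 to 24250 in the heart and to 14.3 to 63.6 in blood, and platelet markers (6 genes) reached 24128 in Blood 21 against 437 to 1748 elsewhere. Monocytes and macrophages also carry most of the 10 genes. The part of these cell types in the results below was not tested, and in such bulk samples fewer cells of a type and less RNA per cell cannot be told apart.

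Of the sequences behind these genes, 4 are shown, a run that bears on how reads of Tlr1 and Tlr6 could be counted and 3 promoters as background to genes that were apart between groups. Tlr1 and Tlr6 are neighbours on chromosome 5, and their coding exons hold an identical run of 229 bases, on the minus strand at chr5:65082880-65083108 in Tlr1 and chr5:65111171-65111399 in Tlr6 (GRCm39). It is printed in lower case because no base differs between the genes.
Tlr1 and Tlr6 shared run: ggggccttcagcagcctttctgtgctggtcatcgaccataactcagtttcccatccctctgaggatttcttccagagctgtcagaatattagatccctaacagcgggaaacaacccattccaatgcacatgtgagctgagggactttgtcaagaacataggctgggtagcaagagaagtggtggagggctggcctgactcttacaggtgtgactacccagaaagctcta
Of the windows of 100 bases along these coding exons, 11.3% in Tlr1 and 11.2% in Tlr6 also occur in the other gene, and of the windows of 50 bases 19.4% and 19.2%. A read from there fits both genes, so the values of both are uncertain, and how many reads this touched was not measured.

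Promoters, taken as 250 bases before to 50 bases after a start site, are shown for Tlr9 and Myd88, the genes with the lowest adjusted p in heart against blood, and for Tlr6, which was lowest in MI. They are RefSeq sequences on GRCm38.p6, and at least 1 promoter was kept for 7 of the 10 genes. They were searched on both strands for 4 motifs: the kappa B site (GGG, any 5 bases, CC), the core bound by PU.1, a myeloid factor (GAGGAA), AP-1 (TGANTCA) and the interferon-stimulated response element (GAAA, any 2 bases, GAAA). Capitals mark the matches.
Tlr9 promoter, chr9:106222348-106222647, plus strand: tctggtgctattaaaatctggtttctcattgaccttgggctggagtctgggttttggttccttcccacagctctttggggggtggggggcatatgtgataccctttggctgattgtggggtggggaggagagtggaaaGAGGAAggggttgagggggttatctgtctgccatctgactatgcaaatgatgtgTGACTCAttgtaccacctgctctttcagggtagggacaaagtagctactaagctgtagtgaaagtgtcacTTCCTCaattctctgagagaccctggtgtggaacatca
Myd88 promoter, chr9:119339969-119340268, minus strand: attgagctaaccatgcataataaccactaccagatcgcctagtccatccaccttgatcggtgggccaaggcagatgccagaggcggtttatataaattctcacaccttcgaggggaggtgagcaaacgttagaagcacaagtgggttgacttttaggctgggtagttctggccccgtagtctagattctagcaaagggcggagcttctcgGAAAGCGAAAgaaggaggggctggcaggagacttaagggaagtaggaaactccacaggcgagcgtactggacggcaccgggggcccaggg
Tlr6 promoter, chr5:64959117-64959416, minus strand: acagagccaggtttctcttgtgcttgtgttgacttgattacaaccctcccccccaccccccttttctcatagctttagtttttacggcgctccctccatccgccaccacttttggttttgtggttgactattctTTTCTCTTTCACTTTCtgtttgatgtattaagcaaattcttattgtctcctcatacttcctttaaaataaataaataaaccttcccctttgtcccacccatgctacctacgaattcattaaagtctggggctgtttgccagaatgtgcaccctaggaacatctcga
The Tlr9 window holds 2 matches to the PU.1 core, 1 on each strand, and 1 to AP-1. The PU.1 core is found in 28.28% of 32851 RefSeq promoters and AP-1 in 7.81%. The Myd88 window holds 1 match to the interferon-stimulated response element, GAAAGCGAAA, which starts 40 bases before the start site. The Tlr6 window holds 2 overlapping matches to it on the opposite strand, while the other Tlr6 start site has none of this motif. This motif is found in 3.44% of promoters. The kappa B letters, present in 50.79% of promoters, matched 5 times in the Tlr2 promoter, in 2 places where matches overlap, 4 times at 1 of the 2 Irak3 start sites and 1 time at the other Tlr6 start site. A match is a description of the letters and not evidence of binding.

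**Figure D1:**
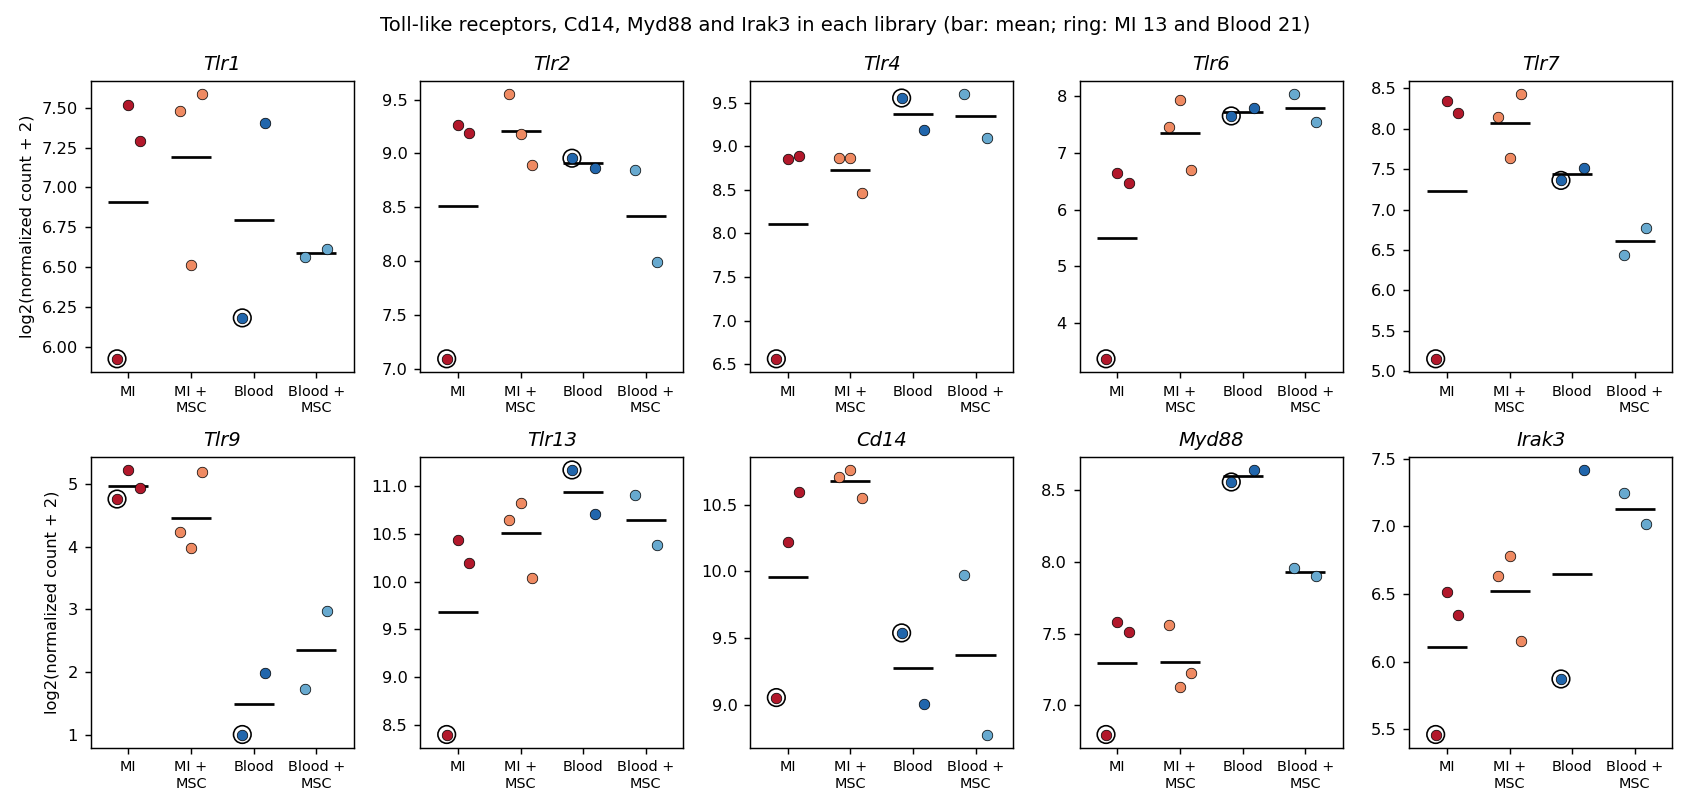
Level of each of the 10 genes in each of the 10 libraries as log2(normalized count + 2), by group, with the group mean as a bar and a ring around MI 13 and Blood 21. Tlr9 in the heart lies above every blood library and Myd88 in the heart below every blood library, and MI 13 is the lowest heart library for every gene but Tlr9.

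Heart and blood libraries were compared to ask how these genes differ between Ly6G+ preparations from the infarcted heart and from blood. Both also held markers of other cell types, as given above, so the contrast is one of mixed preparations. The 6 heart libraries were set against the 4 blood libraries as the mean of the MSC-treated and untreated groups, in a limma fit over 11549 genes on log2(normalized count + 2). A gene was called where its Benjamini-Hochberg adjusted p was under 0.05 and its log2 fold change was 0.5 or more in either direction. In heart against blood, 2 of the 10 genes were called higher (Tlr9 and Cd14) and 1 lower (Myd88), while 25.3% of all tested genes were called higher and 18.1% lower. The median log2 fold change of the 10 genes was -0.19, against 0.12 over all tested genes. Thus the share called in this group of genes was not above that of the transcriptome. Without MI 13, 3 were called higher (Tlr7, Tlr9 and Cd14) and 3 lower (Tlr4, Tlr6 and Myd88), while 26.7% of all tested genes were called higher and 19.2% lower, which sets 6 of 10 against 45.9%.

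Tlr9 (ENSMUSG00000045322, chr9:106099797-106104082, plus strand), the endosomal receptor for CpG DNA, had the largest difference between heart and blood. It measured 25.2, 35.6 and 28.8 normalized counts in MI 13, 19 and 20, and 16.9, 13.8 and 34.6 in MI + MSC 15, 17 and 18. In blood it measured 0 and 1.95 in Blood 21 and 22, and 1.31 and 5.89 in Blood + MSC 23 and 24. Every heart library was thus above every blood library. Tlr9 rose in the heart with a log2 fold change of 2.80 ± 0.44 (SE, adjusted p = 0.00055, limma).
Few reads stand behind these levels. Tlr9 had 3 to 56 reads per heart library and 0, 3, 5 and 35 reads in the blood libraries. The 0 reads of Blood 21 allow up to 21.2 normalized counts, which lies within the heart range, so this library alone shows no difference. Pooled over libraries, 178 heart reads against 43 blood reads gave a ratio of 7.29 (exact 95% counting interval 5.20 to 10.4, counting error only). Without Blood 21 the log2 fold change was 2.56. Tlr9 passed the filter on low values through its heart libraries, as its blood mean was 2.29 ± 2.53 (SD, n = 4). It was called in each untreated or treated pairing as well, at 3.49 ± 0.62 (SE, adjusted p = 0.0021, limma) in MI against Blood, and at 2.12 ± 0.62 (SE, adjusted p = 0.042, limma) in MI + MSC against Blood + MSC. The reads behind these were 96 against 3, a ratio of 17.3 (counting interval 5.76 to 85.5), and 82 against 40, a ratio of 5.90 (3.99 to 8.83). The MI + MSC against Blood + MSC call was lost when any of MI 19, MI 20, MI + MSC 15, MI + MSC 17, MI + MSC 18, Blood + MSC 23 or Blood + MSC 24 was left out.
B cells and plasmacytoid dendritic cells are known for high Tlr9. The 6 B cell markers summed to 85.9 to 185 normalized counts in the MI libraries, 86.5 to 99.0 in those of MI + MSC, 28.3 to 333 in those of Blood and 85.9 to 385 in those of Blood + MSC. The 6 dendritic cell markers summed to 77.7 to 294 in the MI libraries, 36.5 to 61.01 in those of MI + MSC, 7.07 to 24.04 in those of Blood and 39.4 to 59.7 in those of Blood + MSC. In Blood 21, 4 of the B cell and 5 of the dendritic markers were at 0. The dendritic sums were thus higher in MI than in Blood, as Tlr9 was, but overlapped between MI + MSC and Blood + MSC. Siglech, the marker of plasmacytoid dendritic cells in this list, measured 33.6, 1.92 and 6.18 in MI and overlapped with Blood (0 and 1.95). Zbtb46 alone gave 51.9 of the sum in MI 19 and 49.9 in MI 20. The part of these cells in the Tlr9 values was not tested.

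Tlr7 (ENSMUSG00000044583, chrX:166086758-166113605, minus strand), the single-stranded RNA receptor, measured 33.6, 324 and 291 normalized counts in the MI libraries, 283, 197 and 342 in those of MI + MSC, 163 and 181 in those of Blood and 85.1 and 108 in those of Blood + MSC. All heart libraries except MI 13, which had 4 reads of Tlr7, were above all blood libraries. The log2 fold change in heart against blood was 0.63 ± 0.53 (SE, adjusted p = 0.36, limma), and the gene was not called. Without MI 13 it was 1.15 and passed the test (adjusted p = 0.0016, limma).
Tlr13 (ENSMUSG00000033777, chrX:105186810-105204533, plus strand), the receptor for bacterial ribosomal RNA, measured 336, 1386 and 1173 in the MI libraries, 1603, 1811 and 1049 in those of MI + MSC, 2296 and 1674 in those of Blood and 1919.6 and 1333 in those of Blood + MSC. Heart and blood overlapped, and the log2 fold change was -0.70 ± 0.41 (SE, adjusted p = 0.19, limma). The 3 endosomal receptors therefore had log2 fold changes of both signs, from 2.80 for Tlr9 to -0.70 for Tlr13.

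Among the surface receptors, Tlr2 (ENSMUSG00000027995, chr3:83743576-83749074, minus strand), the shared partner of the lipopeptide receptors, measured 134, 613 and 582 normalized counts in the MI libraries, 748, 579 and 473 in those of MI + MSC, 495 and 463 in those of Blood and 457 and 253 in those of Blood + MSC. Its tissues overlapped, with a log2 fold change of 0.20 ± 0.41 (SE, adjusted p = 0.71, limma).
Tlr1 (ENSMUSG00000044827, chr5:65082022-65090941, minus strand), which joins Tlr2 for triacyl lipopeptides, measured 58.8, 181 and 154 in the MI libraries, 176, 89.5 and 189.8 in those of MI + MSC, 70.7 and 168 in those of Blood and 92.5 and 95.9 in those of Blood + MSC. Heart and blood overlapped here too, at 0.36 ± 0.37 (SE, adjusted p = 0.45, limma).
Tlr6 (ENSMUSG00000051498, chr5:65108704-65203497, minus strand), the partner for diacyl lipopeptides, measured 8.40, 98.0 and 86.5 in the MI libraries, 172, 241 and 101 in those of MI + MSC, 198 and 219 in those of Blood and 258 and 183 in those of Blood + MSC. The MI libraries were the 3 lowest of the 10, and MI + MSC 17 was the sole heart library within the blood range. Over both heart groups, Tlr6 was not called (log2 fold change -1.32 ± 0.55, SE, adjusted p = 0.073, limma). Between MI and Blood it fell by 2.22 ± 0.78 (SE, adjusted p = 0.047, limma). This call was made in 9 of 22 alternatives. The value of MI 13 is a single read, and without that library the log2 fold change in MI against Blood was -1.16 (adjusted p = 0.042, limma). An annotated gene on the same strand overlaps Tlr6 and 2 overlap Tlr4, and reads could be split with them.
Tlr4 (ENSMUSG00000039005, chr4:66745783-66849936, plus strand), the LPS receptor, measured 92.4, 460.4 and 473 in the MI libraries, 463, 464 and 349.8 in those of MI + MSC, 749 and 582 in those of Blood and 772 and 546 in those of Blood + MSC. Every heart library was below every blood library. The log2 fold change was -0.94 ± 0.42 (SE, 95% interval -1.86 to -0.03), which missed the threshold (adjusted p = 0.087, limma). Without MI 13 it was -0.56 and was called (adjusted p = 0.035, limma).

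Cd14 (ENSMUSG00000051439), a surface co-receptor for LPS on chromosome 18, had a log2 fold change opposite in sign to that of Tlr4. It measured 529, 1189 and 1546 normalized counts in the MI libraries, 1673, 1733 and 1500.3 in those of MI + MSC, 742 and 513 in those of Blood and 1004 and 437 in those of Blood + MSC. The heart libraries other than MI 13 were above all 4 blood libraries. Cd14 rose in the heart with a log2 fold change of 0.99 ± 0.36 (SE, adjusted p = 0.042, limma). This call was lost when any of MI 19, MI 20, MI + MSC 15, MI + MSC 17, MI + MSC 18, Blood 22 or Blood + MSC 24 was left out or with TMM scaling, and the adjusted p over the alternatives ranged from 0.0031 to 0.19. Without MI 13 the log2 fold change was 1.22 (adjusted p = 0.0055, limma).

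Myd88 (ENSMUSG00000032508, chr9:119165000-119170486, minus strand), the adaptor of all 7 receptors, was lower in the heart. It measured 109, 189 and 181 normalized counts in the MI libraries, 187, 138 and 148 in those of MI + MSC, 374 and 397 in those of Blood and 247 and 237 in those of Blood + MSC. All 6 heart libraries were below all 4 blood libraries. Myd88 fell by 0.96 ± 0.21 on the log2 scale (SE, adjusted p = 0.0043, limma), and was called in each of the 21 alternatives. Between the untreated groups it fell by 1.30 ± 0.30 (SE, adjusted p = 0.0081, limma). Between the treated groups the log2 fold change was -0.63 ± 0.30 (SE, adjusted p = 0.18, limma), also without overlap between the groups. Acaa1a lies on the opposite strand across Myd88, and the authors counted by strand.
Irak3 (ENSMUSG00000020227, chr10:119975568-120038035, minus strand), which restrains Myd88 signalling, measured 42.0, 89.4 and 79.3 in the MI libraries, 97.3, 108 and 69.1 in those of MI + MSC, 56.5 and 169 in those of Blood and 150.0 and 127 in those of Blood + MSC. Only Blood 21, with 8 reads of Irak3, lay within the heart range. The log2 fold change in heart against blood was -0.57 ± 0.32 (SE, adjusted p = 0.17, limma), and without Blood 21 it was -0.96 (adjusted p = 0.018, limma). A gene annotated on the same strand overlaps Irak3.

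In MI against Blood, 1 of the 10 genes was called higher (Tlr9) and 2 lower (Tlr6 and Myd88), while 21.2% of all tested genes were called higher and 13.5% lower. Between MI + MSC and Blood + MSC, 1 was called higher (Tlr9) and 0 lower, while 8.23% and 5.85% of all genes were. The MI and Blood groups did not overlap for Tlr9 (higher) or for Tlr4, Tlr6, Tlr13 and Myd88 (lower), against 31.6% and 23.6% of all tested genes that did not overlap in these directions. For MI + MSC against Blood + MSC, the groups were apart for Tlr2, Tlr7, Tlr9 and Cd14 (higher) and for Tlr4, Myd88 and Irak3 (lower), against 33.8% and 29.7% of all tested genes. Over all heart and blood libraries this held for Tlr9 (higher) and for Tlr4 and Myd88 (lower), against 19.1% and 14%. The count tests called more genes. edgeR's quasi-likelihood test on the recovered reads called Tlr7, Tlr9 and Cd14 higher and Tlr6, Myd88 and Irak3 lower in heart against blood, at a background of 28.7% higher and 23.5% lower. DESeq2 called the same genes except Irak3, at a background of 26.9% higher and 21.3% lower.

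**Figure D2:**
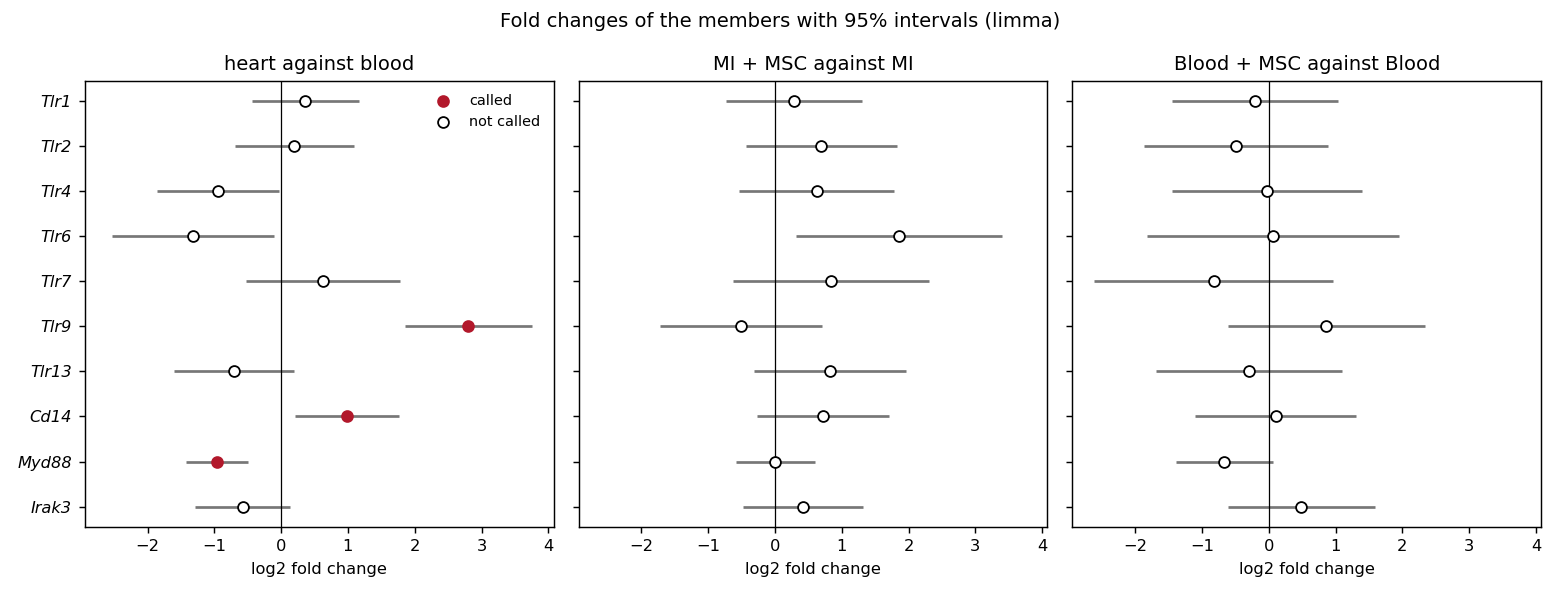
Log2 fold change of each of the 10 genes with its 95% interval (limma, log2(normalized count + 2)) in heart against blood, MI + MSC against MI and Blood + MSC against Blood, with filled points for called genes. Tlr9, Cd14 and Myd88 are called between tissues, and every interval except that of Tlr6 in the heart spans 0 in the MSC comparisons.

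The MSC comparisons asked whether remote MSC treatment altered these genes within a tissue. In MI + MSC against MI, 0 of the 10 genes were called by limma, as were 0% of the 11549 tested genes, of which 925 had an unadjusted p under 0.05. edgeR called 0 of all genes, DESeq2 called 25 higher and 58 lower, and limma-voom with quality weights called 41 higher and 221 lower, with 0 of the 10 among them. The log2 fold change was above 0 for 9 of the 10 genes, with a median of 0.66 against -0.01 over all tested genes. This rested on MI 13. Without it, 4 of 10 were above 0 and the median was -0.08. Tlr1, Tlr2, Tlr4, Tlr7 and Myd88 then stood at -0.21, -0.02, -0.14, -0.20 and -0.24.
Tlr6 was the only one of the 10 with an unadjusted p under 0.05 and had an adjusted p of 0.59 (limma). Its log2 fold change was 1.85 ± 0.70 (SE, 95% interval 0.32 to 3.39), and all 3 MI + MSC libraries were above all 3 MI libraries. The gap was narrow, between 98.0 in MI 19 (102 reads) and 101 in MI + MSC 18 (149 reads). Such a gap upward was seen in 7.05% of all tested genes and a gap downward in 9.6%, with 1 and 0 of the 10 genes. Without MI 13 the log2 fold change of Tlr6 was 0.79. The interval of Tlr9 ran from -1.72 to 0.70, that of Cd14 from -0.27 to 1.71 and that of Myd88 from -0.58 to 0.60, so the data allow differences of these sizes for them. The sums of 4 marker lists also did not overlap between these groups. Endothelial markers (7 genes) summed to 1723 to 1876 normalized counts in MI and 399 to 783 in MI + MSC, mural markers (6 genes) to 903 to 1084 and 250.1 to 609, platelet markers to 437 to 615 and 822 to 1748, and dendritic cell markers to 77.7 to 294 and 36.5 to 61.01. Zbtb46 alone gave 84.0, 51.9 and 49.9 of the dendritic sum in MI 13, 19 and 20. In MI + MSC 15, 17 and 18 Zbtb46 gave 10.8, 16.1 and 21.02. Xcr1 was also higher in every MI library, while Flt3, Clec9a, Siglech and Itgae overlapped between the groups. Flt3 and Clec9a were lower in MI 19 and MI 20 than in every MI + MSC library. The part of these 4 lists in the values was not tested.

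In Blood + MSC against Blood, 0 of the 10 genes were called, again with 0% of all tested genes and 848 of them at an unadjusted p under 0.05. edgeR and limma-voom called 0 of all genes and DESeq2 5 higher and 159 lower, with 0 of the 10 among them. Without Blood 22, which leaves Blood 21 as the only Blood library, assumed to vary like the other groups, limma called 1113 of all genes higher and 393 lower (3060 at an unadjusted p under 0.05), with 0 of the 10 among them. The median log2 fold change was -0.12, against 0.11 over all tested genes, and 4 of the 10 were above 0. Myd88 came nearest to the threshold, at -0.67 ± 0.33 (SE, 95% interval -1.39 to 0.06, adjusted p = 0.68, limma), from 374 and 397 normalized counts in Blood to 247 and 237 in Blood + MSC. Tlr2, Tlr7 and Myd88 were lower in both Blood + MSC libraries than in both Blood libraries, a pattern found in 15.4% of all tested genes, and 0 of the 10 were higher without overlap, against 21%. With 2 libraries a group, the intervals were wide: that of Tlr7 ran from -2.62 to 0.97 and that of Tlr6 from -1.82 to 1.95. The neutrophil marker sums did not overlap in this comparison, at 46709 to 55295 in Blood and 17263 to 24519 in Blood + MSC. S100a8 and S100a9 gave 12061 and 16229 of the sum in Blood 21, and 7659 and 10655 in Blood 22. In Blood + MSC 23 they gave 3320 and 4124, and in Blood + MSC 24 they gave 2073 and 2730. Csf3r, Mmp9, Camp, Ltf and Ngp overlapped between the groups, and the other neutrophil markers were lower in Blood + MSC. Platelet, endothelial and dendritic cell sums also did not overlap. They were 1051 to 24128, 63.02 to 601 and 7.07 to 24.04 in Blood. In Blood + MSC they were 566 to 666, 32.8 to 42.1 and 39.4 to 59.7. Pecam1 alone gave 586 of the endothelial sum in Blood 21 and 50.7 in Blood 22. In Blood + MSC 23 and 24 Pecam1 gave 23.4 and 34.7. In Blood 21, 4 of the 7 endothelial genes were at 0. The part of all 4 lists in the values was not tested.
The difference of the MSC effect between tissues was tested as an interaction. None of the 10 genes was called by limma (0% of all tested genes, 838 at an unadjusted p under 0.05), and 0 of the 10 had an unadjusted p under 0.05. Over all genes, edgeR and limma-voom called 0 for it and DESeq2 called 13 higher and 2 lower, and limma without Blood 22 called 249 higher and 846 lower, with 0 of the 10 among any of these. The interaction estimate of Tlr6 was 1.79 (95% interval -0.64 to 4.22) and that of Tlr9 was -1.37 (-3.29 to 0.54).

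Ratios between partner genes within a library depend little on its size factor, and were taken on the log2 scale after adding 2 to each normalized count. The co-receptor Cd14 relative to Tlr4 was 2.49, 1.36 and 1.70 in the MI libraries, 1.85, 1.90 and 2.09 in those of MI + MSC, -0.01 and -0.18 in those of Blood and 0.38 and -0.32 in those of Blood + MSC. No heart library overlapped with a blood library, MI 13 included. In plain numbers, there were 2.58 to 5.73 Cd14 counts per Tlr4 count in the heart and 0.800 to 1.301 in blood. The mean difference was 1.93 on the log2 scale, from 1.90 ± 0.38 (SD, n = 6) to -0.03 ± 0.30 (SD, n = 4). The two-sided exact permutation test gave p = 0.0095, the smallest it can give for 6 against 4, and 0.11 after Benjamini-Hochberg adjustment over 12 such tests.
Tlr6 relative to Tlr2 was -3.71, -2.62 and -2.72 in the MI libraries, -2.11, -1.26 and -2.20 in those of MI + MSC, -1.31 and -1.07 in those of Blood and -0.82 and -0.46 in those of Blood + MSC. The groups thus lay in the order MI, MI + MSC and the blood groups, with MI + MSC 17 among the blood values. The mean was -2.44 ± 0.81 (SD, n = 6) in the heart and -0.92 ± 0.37 (SD, n = 4) in blood, a difference of -1.52 (two-sided exact permutation p = 0.019, adjusted 0.11). For MI + MSC against MI the difference was 1.16, where the exact permutation test on 3 against 3 cannot go below the 0.1 it gave (adjusted 0.40). Without MI 13 this difference was 0.82.
The other partner ratios differed less. Tlr1 relative to Tlr2 averaged -1.81 ± 0.54 in the heart and -1.97 ± 0.67 in blood (exact permutation p = 0.69), and Irak3 relative to Myd88 averaged -0.99 ± 0.34 and -1.38 ± 0.90 (exact permutation p = 0.49). The spread of the latter in blood came with Blood 21, which stood at -2.69 against -1.22 to -0.71 in the other blood libraries. None of the 12 tests had an adjusted p under 0.05, and 2 against 2 libraries in blood cannot give a p below 0.33.

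**Figure D3:**
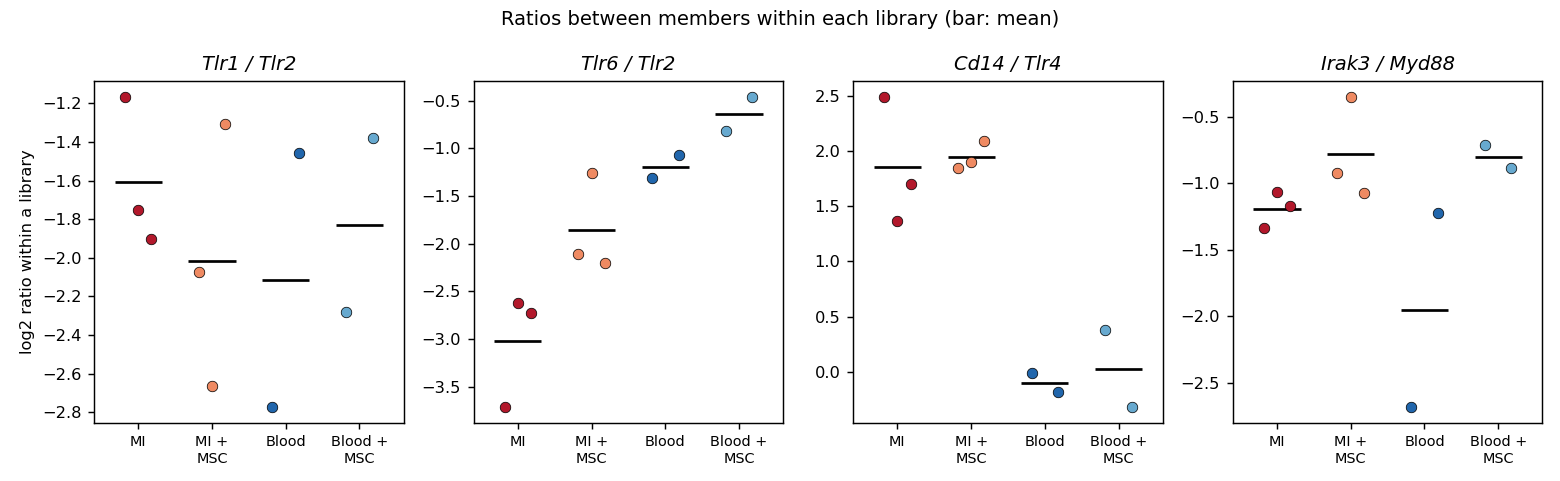
Log2 ratio between partner genes within each library (2 added to each normalized count), by group, with the group mean as a bar. Cd14 relative to Tlr4 separates heart (1.36 to 2.49) from blood (-0.32 to 0.38), and Tlr6 relative to Tlr2 is lowest in MI.

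Levels of different genes were compared per kb of exon. Tlr13 was the first of the 7 receptors in all 10 libraries, with 48.8 ± 4.7% (SD, n = 6) of the summed receptor level per kb in the heart and 58.1 ± 3.4% (SD, n = 4) in blood. By mean share, Tlr2 came second in the heart (17.9 ± 1.6%, against 11.5 ± 1.5% in blood). Tlr4 came second by mean share in blood (14.6 ± 1.5%, against 10.3 ± 1.1% in the heart). In Blood 22, however, Tlr2 (12.96%) stood above Tlr4 (12.78%). Tlr2 had a higher share in each heart library (15.7 to 19.8%) than in each blood library (9.31 to 12.96%), and Tlr4 a lower one (9.33 to 12.3% against 12.8 to 15.8%). The share of Tlr9 was 0.590 to 5.13% in the heart and 0 to 0.343% in blood. The 5.13% was that of MI 13, which had 3 reads of Tlr9, and the next highest share was 1.95% in MI + MSC 18. These shares sum to the whole in each library, so a higher share of one receptor lowers the others, and they were not tested.
Over all 10 genes, Cd14 had the highest mean level per kb in MI (628 ± 298 normalized counts per kb), MI + MSC (944 ± 69.9) and Blood + MSC (416 ± 232), and Tlr13 in Blood (419 ± 92.8). Cd14 and Tlr13 did not overlap in the heart groups and did overlap in both blood groups. In MI, every neighbouring pair from Tlr13 (204 ± 117) down through Tlr2, Tlr4, Myd88, Tlr7, Tlr1, Tlr6, Irak3 and Tlr9 (8.59 ± 1.51) overlapped in its libraries. In MI + MSC, Tlr13 (314 ± 83.2), Tlr2 (109 ± 25.2) and Tlr4 (60.7 ± 9.36) were apart from each other, while Tlr4, Tlr7, Tlr1, Myd88 and Tlr6 formed a chain of overlapping neighbours. In Blood, Myd88 (99.2 ± 4.09), Tlr4 (94.96 ± 16.8) and Tlr2 (87.1 ± 4.03) formed such a chain, so the level of Myd88 was within the spread of its neighbour Tlr4 there. In each group Tlr9 was last.

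**Figure D4:**
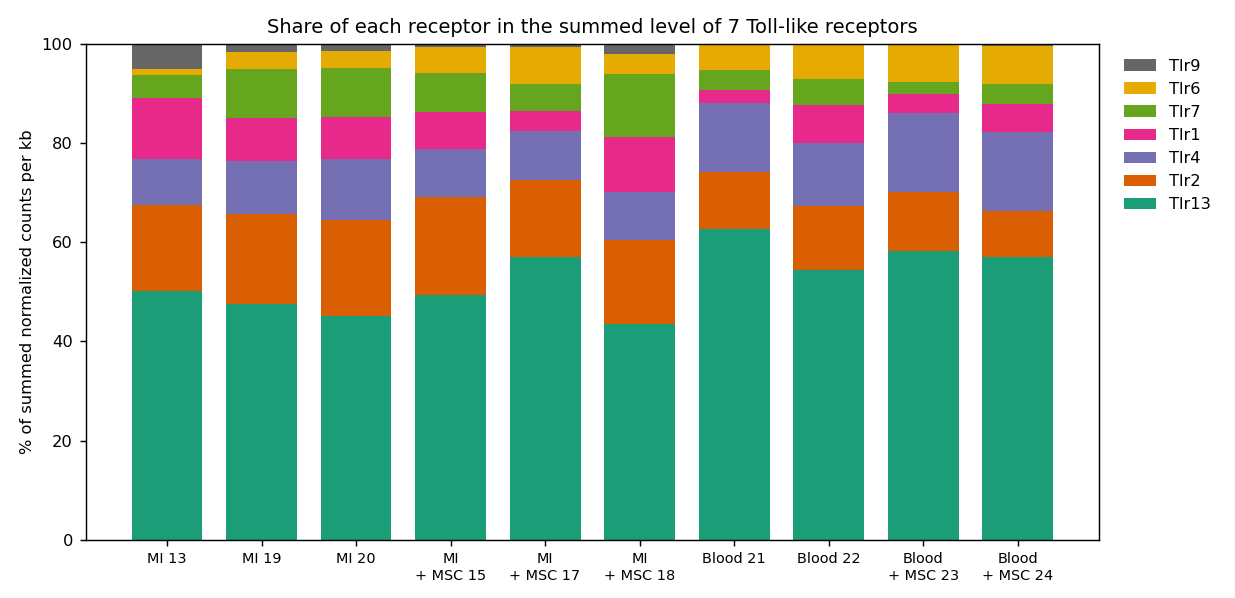
Share of each of 7 Toll-like receptors in their summed normalized counts per kb of exon, for each library. Tlr13 takes the largest share in all 10 libraries (43.5 to 57.0% in the heart, 54.4 to 62.6% in blood), and Tlr9 is visible in the heart libraries.

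The wider pathway was described by 33 other genes, of which 29 passed the filter and Tlr11, Tlr12, Sarm1 and Sigirr did not, with means of 1.13 to 5.92 normalized counts. In heart against blood, 3 of the 29 were called higher (Tlr3, Irak1 and Cd36) and 5 lower (Lbp, Irak4, Tirap, Unc93b1 and Peli1), and 21 were not called, at the background of 25.3% higher and 18.1% lower given above. Without MI 13, 13 of the 29 were called, against 45.9% of all tested genes, and 5 without any 1 of MI 19, MI + MSC 18, Blood + MSC 23 or Blood + MSC 24, against 26.7 to 39.4%.
Irak4, the kinase that Myd88 recruits first, measured 25.2 to 71.6 normalized counts in the heart and 148 to 244 in blood, with no overlap. The lowest heart value, 25.2, is that of MI 13 and stands for 3 reads. Irak4 fell by 1.85 ± 0.28 on the log2 scale (SE, adjusted p = 0.00043, limma). Tirap, which bridges Tlr2 and Tlr4 to Myd88, measured 33.2 to 71.2 in the heart and 97.9 to 157 in blood and fell by 1.17 ± 0.25 (SE, adjusted p = 0.0039, limma). Irak1, the next kinase, was higher, with a log2 fold change of 0.70 (adjusted p = 0.03, limma), although its tissues overlapped.
Unc93b1, the chaperone that carries Tlr7, Tlr9 and Tlr13 to endosomes, measured 202 to 551 in the heart and 572 to 846 in blood and fell by 0.96 ± 0.24 (SE, adjusted p = 0.0086, limma). It was thus lower where Tlr9 was higher. Lbp, the plasma protein that loads LPS onto Cd14, measured 4.12 to 16.8 in the heart and 19.5 to 70.7 in blood and fell by 2.004 ± 0.371 (SE, adjusted p = 0.0016, limma). Lbp passed the filter on low values through its blood libraries, as its heart mean was 8.46 ± 4.34 (SD, n = 6). It had 2 to 12 reads per heart library and 4 reads in Blood 21. This limit also holds for its call between the treated groups below. Tlr3, the double-stranded RNA receptor that signals without Myd88, measured 22.96 to 46.1 in the heart and 8.14 to 16.2 in blood. Tlr3 rose by 1.28 ± 0.27 in the heart (SE, adjusted p = 0.0036, limma). Its value in Blood 21 (14.1) is 2 reads and that in MI 13 (42.0) is 5 reads.
Fewer were called within the untreated or the treated libraries. Between the untreated groups, 2 of 29 were higher (Tlr3 at 1.35 and Irak1 at 1.16) and 4 lower, including Irak4 at -2.06, Tirap at -1.27 and Unc93b1 at -1.26, while 21.2% of all tested genes were called higher and 13.5% lower. Between the treated groups, 0 were higher and 2 lower, Lbp at -2.66 ± 0.52 (SE, adjusted p = 0.0077, limma) and Irak4 at -1.64 ± 0.39 (SE, adjusted p = 0.019, limma), while 8.23% and 5.85% of all genes were. Without MI 13 the numbers called were 11 and 6 in these comparisons, against 31% and 22.9% of all tested genes. Without MI 19, 3 were called between the untreated groups, against 28.3%. Without Blood + MSC 23 or Blood + MSC 24, 0 were called between the treated groups, against 2.3% and 4.4%. Without MI + MSC 18, 1 was called there, against 6.23%, and without Blood 21 or Blood 22 there were 4, against 23.4% in both cases.
In the MSC comparisons, 0 of the 29 pathway genes were called. The lowest unadjusted p-values in MI + MSC against MI belonged to Irak2, a kinase of the Myd88 complex, at 0.99 ± 0.39 (SE, adjusted p = 0.60, limma), Unc93b1 at 0.77 ± 0.31 (SE, adjusted p = 0.61, limma) and Cd36 at -0.74 ± 0.34 (SE, adjusted p = 0.62, limma). Unc93b1 measured 202, 342 and 350.0 normalized counts in MI and 551, 411 and 529 in MI + MSC, without overlap. In Blood + MSC against Blood they belonged to Irak1 at 1.12 ± 0.36 (SE, adjusted p = 0.67, limma), Lbp at 1.26 ± 0.57 (SE, adjusted p = 0.67, limma) and Tlr8 at -1.28 ± 0.68 (SE, adjusted p = 0.68, limma). For the interaction they belonged to Tlr8 at 2.05 ± 0.87 (SE, adjusted p = 0.63, limma), Tollip at 1.75 ± 0.85 and Irak1 at -0.92 ± 0.46 (adjusted p = 0.63 for both, limma).

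**Figure D5:**
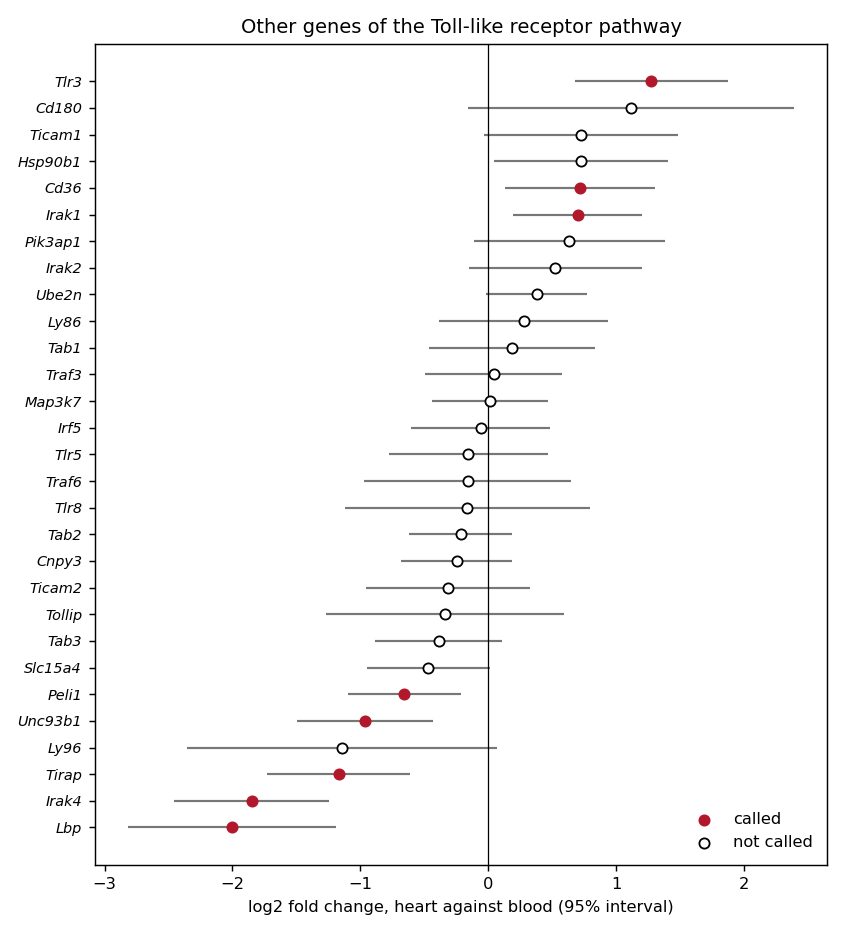
Log2 fold change in heart against blood with its 95% interval for the 29 other pathway genes tested (limma), sorted by fold change, with filled points for called genes. Tlr3, Cd36 and Irak1 are called higher, and Peli1, Unc93b1, Tirap, Irak4 and Lbp lower.

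For each of the 10 genes, the genes with the most similar profile over the 10 libraries were found among 11510 others, as the smallest root mean square difference of mean-centred log2(normalized count + 2). Among the 3 nearest profiles of Myd88 were those of Atosb (0.13, against 0.56 for the size of its own profile) and Cept1 (0.14). Tlr13 was closest to Lysmd3 (0.10, own profile 0.73) and Rap2c (0.12). Tlr4 shared Rap2c (0.20) with Tlr13 and was closest to Spsb3 (0.12, own profile 0.81), with Ptbp3 at 0.20. Tlr6 was closest to Nmrk1 (0.18, own profile 1.30), Gm44710 (0.26) and Clec4d (0.30), and Tlr9 to Col5a1 (0.31, own profile 1.49), AU020206 (0.31) and Gpr153 (0.33). Cd14 was closest to Osgin2, Rgcc and Tgfbr1 (0.24 to 0.26, own profile 0.73), Tlr7 to Slfnlnc, Tspan3 and Clcn5 (0.28 to 0.34, own profile 0.98) and Tlr2 to Gm56517, Ccdc117 and Tmed7 (0.21 to 0.27, own profile 0.68). Tlr1 was closest to Pld4, Emc3 and Nt5c (0.23 to 0.25, own profile 0.58) and Irak3 to Utp14a, Sptlc1 and Zxdc (0.13 to 0.16, own profile 0.58). The points share the depth and size factors of their libraries, so the likeness is a description of these libraries.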

How the data were processed

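Stranded, paired-end libraries were made after depletion of ribosomal RNA. The authors used Trimmomatic (trimming), Picard (removal of duplicates), STAR (mapping to GRCm39) and featureCounts (stranded counts per gene), dropped mitochondrial reads and took size factors from DESeq2. Removing duplicates can lower the counts of highly expressed genes. The deposited signal values are these counts divided by the size factor of each library. Both deposited tables held the same 281850 values, and 100% were whole multiples of 1 read (tolerance 0.01), so the reads were recovered.

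Libraries were grouped by their labels. limma (3.58.1) with an intensity trend was fitted to log2(normalized count + 2) of all 10 libraries, with a mean per group, for the 11549 genes whose mean was 10 normalized counts or more. Fold changes on this scale understate the change of low genes. A gene was called where the adjusted p (Benjamini-Hochberg) was under 0.05 and the log2 fold change 0.5 or more in either direction, and for the interaction by adjusted p alone. Alternatives were pseudocounts, filters, scalings, edgeR (4.0.16), DESeq2 (1.42.0) and limma-voom on recovered reads, and libraries left out. The limma, edgeR and DESeq2 steps were tested on simulated data. Ratios were compared by two-sided exact permutation (scipy 1.17.1). Scripts ran in Python 3.11.15 (pandas 2.3.3, numpy 2.4.6, matplotlib 3.10.9) and R 4.3.3.

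The genes named are the 10 members, up to 5 called pathway genes per comparison with the largest fold change (the 3 with the lowest p where none was called), and the 3 nearest profiles of each member, of which some are not reported here. Peli1, and Irak1 and Cd36 in heart against blood, were named after their values were seen, to complete counts of calls. The members and lists were chosen with earlier results of these data known. Gene positions and exon lengths are from GENCODE for GRCm39, which held 27906 of the 28185 identifiers and may differ from the release the authors used. Promoters are RefSeq sequences on GRCm38.p6 and were matched by symbol.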

Additional observations from a re-analysis of the deposited data

How the results depend on the processing

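Among the fold changes of the 10 genes under settings other than leaving out a single library, 630 kept their direction and their side of the threshold, 21 gained and 11 lost a call, and 32 turned in sign. No paired analysis was possible because the groups share no replicate numbers and the labels do not tie heart and blood libraries to the same mouse. Of the 10 genes, the number called in MI against Blood (3) was 1 with a mean minimum of 20, limma-voom or only the groups compared. For MI + MSC against Blood + MSC (1) it was 0 with a pseudocount of 1, no filter or a mean minimum of 20, 2 with edgeR, 3 with DESeq2, limma-voom or only the groups compared, and 4 without MI 13 and Blood 21. In heart against blood (3) it was 6 with edgeR, 5 with DESeq2 and 6 without MI 13 and Blood 21. Tlr9 was not tested at a mean minimum of 20. The share of all tested genes called moved as well. In MI against Blood (34.7%) it was 34.1% with a mean minimum of 20, 22.4% with limma-voom, 14.7% with only the groups compared and 38.3% without MI 13 and Blood 21. In MI + MSC against Blood + MSC (14.1%) it was 13.6% with a pseudocount of 1, 4.63% with no filter, 17.6% with a mean minimum of 20, 31.4% with edgeR, 28.9% with DESeq2, 42.3% with limma-voom, 34.7% with only the groups compared and 41.3% without MI 13 and Blood 21. In heart against blood (43.4%) it was 52.2% with edgeR, 48.2% with DESeq2, 48.8% with limma-voom and 55.6% without MI 13 and Blood 21. Of the pathway genes, MI against Blood (6) gave 1 with only the groups compared and 10 without MI 13 and Blood 21. MI + MSC against Blood + MSC (2) gave 5 with edgeR or DESeq2, 8 with limma-voom, 6 with only the groups compared and 9 without MI 13 and Blood 21, and heart against blood (8) gave 13 with limma-voom and 15 without MI 13 and Blood 21.

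With 1 library left out, the members called ranged from 0 to 3 in MI + MSC against Blood + MSC and from 2 to 6 in heart against blood. The pathway genes called ranged from 3 to 11 in MI against Blood, 0 to 6 in MI + MSC against Blood + MSC, 5 to 13 in heart against blood, and 0 to 1 in Blood + MSC against Blood and in the interaction. The highest counts in the tissue comparisons came without MI 13. The share of all genes called ranged from 28.3 to 33.7% in MI against Blood, 2.3 to 23.4% in MI + MSC against Blood + MSC and 26.7 to 45.9% in heart against blood. Without Blood 22 it was 13% in Blood + MSC against Blood and 9.48% in the interaction, against 0% in both with any other library left out. The cause of these shifts was not tested.

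Scaling by library totals moved the median log2 fold change of all genes from 0.12 to 0.40 in heart against blood, from 0.15 to 0.63 in MI against Blood, from 0.11 to 0.37 in Blood + MSC against Blood and from -0.12 to -0.52 in the interaction. Without MI 13 and Blood 21, log2 fold changes that turned in sign in MI + MSC against MI were Tlr1 (-0.21), Tlr2 (-0.020), Tlr4 (-0.14), Tlr7 (-0.20) and Myd88 (-0.24), in Blood + MSC against Blood Tlr4 (0.16), Tlr6 (-0.0093) and Irak3 (-0.29), in MI against Blood Tlr1 (-0.0049), Tlr2 (0.37) and Tlr7 (0.76), and in the interaction Tlr4 (-0.30), Cd14 (-0.10) and Irak3 (0.38). Tlr1 relative to Tlr2 became -0.37 in Blood + MSC against Blood and -0.23 in heart against blood. For MI + MSC against MI, Myd88 was also -0.0071 with TMM, -0.12 with library totals, -0.075 with edgeR, -0.092 with DESeq2 and -0.15 with limma-voom, and Tlr1 was -0.094 with limma-voom. In MI against Blood, Tlr2 was 0.13 with library totals, and Tlr7 was 0.31 with library totals, 0.44 with edgeR, 0.39 with DESeq2 and 0.52 with limma-voom. In Blood + MSC against Blood, library totals gave 0.086 for Tlr1, 0.27 for Tlr4 and 0.0054 for Tlr13, and limma-voom -0.052 for Cd14. The interaction of Irak3 was 0.12 with edgeR, 0.10 with DESeq2 and 0.014 with limma-voom. None of these values that turned was called in the fit reported above.

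Leaving out 1 library at a time also turned signs. The ranges for MI + MSC against MI were -0.21 to 0.62 for Tlr1, -0.020 to 1.07 for Tlr2, -0.14 to 1.02 for Tlr4, -0.20 to 1.399 for Tlr7 and -0.24 to 0.15 for Myd88. In Blood + MSC against Blood they were -0.82 to 0.40 for Tlr1, -0.27 to 0.22 for Tlr4, -0.18 to 0.31 for Tlr6, -0.50 to 0.70 for Cd14 and -0.29 to 1.26 for Irak3. In MI against Blood they were -0.50 to 0.73 for Tlr1, -0.77 to 0.32 for Tlr2, -0.76 to 0.83 for Tlr7 and -1.31 to 0.24 for Irak3. Tlr13 ranged from -0.40 to 0.12 in MI + MSC against Blood + MSC, and Tlr2 from -0.015 to 0.55 in heart against blood. Interactions ranged from -0.12 to 1.10 for Tlr1, -0.12 to 1.05 for Tlr4 and -0.84 to 0.70 for Irak3. Ratios that turned were Tlr1 to Tlr2 (-0.37 to 0.94 in Blood + MSC against Blood, -0.10 to 0.36 in heart against blood), Cd14 to Tlr4 (-0.15 to 0.41 in MI + MSC against MI, -0.22 to 0.48 in Blood + MSC against Blood) and Irak3 to Myd88 (-0.046 to 0.61 in heart against blood). Depth limits MI 13 and Blood 21 most, where 3 reads stand for 25.2 and 21.2 normalized counts.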
